A study of Canis lupus familiaris with 25 samples.

Results

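Chemokines are small proteins that steer the movement of cells, and chemokine receptors are the membrane proteins that bind them. The genes described here were chosen by symbol alone: every gene of the deposited table named CCL, CXCL, CCR, CXCR, XCL, XCR or ACKR followed by a number, and CX3CL1, CX3CR1 and CCRL2. This gave 50 of the 24532 genes, of which 29 encode ligands, 16 encode receptors that signal through G proteins, and 5 encode atypical receptors, which bind chemokines without that signal. The samples were archival canine tumor tissue, fixed in formalin and embedded in paraffin (FFPE), and their RNA was read near the 3′ end of each transcript (QuantSeq), so that a count does not grow with transcript length. The 10 hepatoid gland adenomas (HGA), benign tumors of perianal glands, came from dogs aged 8 to 14 years (median 12), of which 4 were male, 1 was a neutered male, 2 were female and 3 were neutered females. The 11 primary apocrine gland anal sac adenocarcinomas (AGASAC), which are malignant, came from dogs aged 8 to 12.5 years (median 10), with 6 neutered males, 2 females and 3 neutered females. The 4 metastases were sublumbal lymph node metastases from the dogs of primary AGASAC 1 to 4, aged 8 to 10 years, and no treatment is given for any dog. Each group with more than 4 dogs held 10 breed labels, so the groups differ in tumor type, sex, age and breed together, and these cannot be told apart here.

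As background, a chemokine secreted in a tissue is held on the glycans of cell surfaces and matrix, and leukocytes that carry its receptor move toward it. Inflammatory chemokines are switched on by cytokines such as interferon gamma and draw monocytes, T cells and neutrophils, while homeostatic chemokines are made steadily by lymphoid tissue, lymphatic vessels, stroma and epithelia. In tumors the same proteins are studied for their part in leukocyte entry and in spread to lymph nodes.

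The smallest HGA library had 1562347 counts on genes and the largest 6389555, with a median of 2506085. Primary AGASAC libraries held 2581453 to 4218340 (median 2950459), and those of the metastases 2857541 to 3289546 (median 3102626). Levels are given as CPM, the counts of a gene relative to the size of its library, scaled by the trimmed mean of M values (TMM) over all 25 samples. A count of 0 allows up to 3 counts by counting error alone, which is 1.92 CPM without TMM in HGA 4, the smallest library. All 50 genes had counts in at least 1 sample, 7 had counts in all 25 samples, and 3 had at most 3 counts in every sample. Only 11 of them averaged at least 10 CPM over the 25 samples, and 17 averaged under 1 CPM. CXCL14 had the highest mean, 198 CPM, followed by CXCL16 at 41.0, CCL23 at 40.5, CCL2 at 40.5, CXCL12 at 35.7 and CCL21 at 25.0 CPM. This rank pools the groups, and CXCL14 had a mean of 435 CPM in HGA and 43.7 CPM in primary AGASAC. In primary AGASAC the means of CXCL16 (53.3 CPM), CCL2 (51.8 CPM) and CCL23 (47.1 CPM) were above that of CXCL14. The most abundant receptor was CXCR4, which holds cells in bone marrow and lymphoid tissue, at a mean of 12.1 CPM. So ligands of epithelium, stroma and monocytes were the most abundant over the pooled samples. CXCR4 was the only receptor among the 11 genes with a pooled mean of at least 10 CPM.

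The summed level of the 50 genes was 307 to 1394 CPM in HGA (median 689.5), 242 to 562 CPM in primary AGASAC (median 412), and 329, 749, 377 and 490.1 CPM in metastases 1 to 4. Without CXCL14 the same sums were 136 to 565 CPM in HGA (median 263), 197 to 536 CPM in primary AGASAC (median 314), and 324, 658, 364 and 473 CPM in the metastases. The groups overlapped in both sums. In HGA a single gene took much of the total: CXCL14 was the most abundant of the 50 in 9 of 10 adenomas and CCL28 in HGA 10. In primary AGASAC the most abundant gene was CXCL14 in 4 tumors, CCL2 in 2, CCL5 in 2, CXCL16 in 2 and CCL23 in 1. Among the metastases it was CCL2 in 2, CCL26 in 1 and CXCL12 in 1. Fewer of the genes had counts in HGA (18 to 38, median 31) than in the metastases (35 to 42, median 37.5), with primary AGASAC at 29 to 39 (median 33), although the ranges overlapped. The same order was seen over all genes, with a median of 15672.5 detected in HGA, 16781 in primary AGASAC and 17278 in the metastases.

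**Figure D1:**
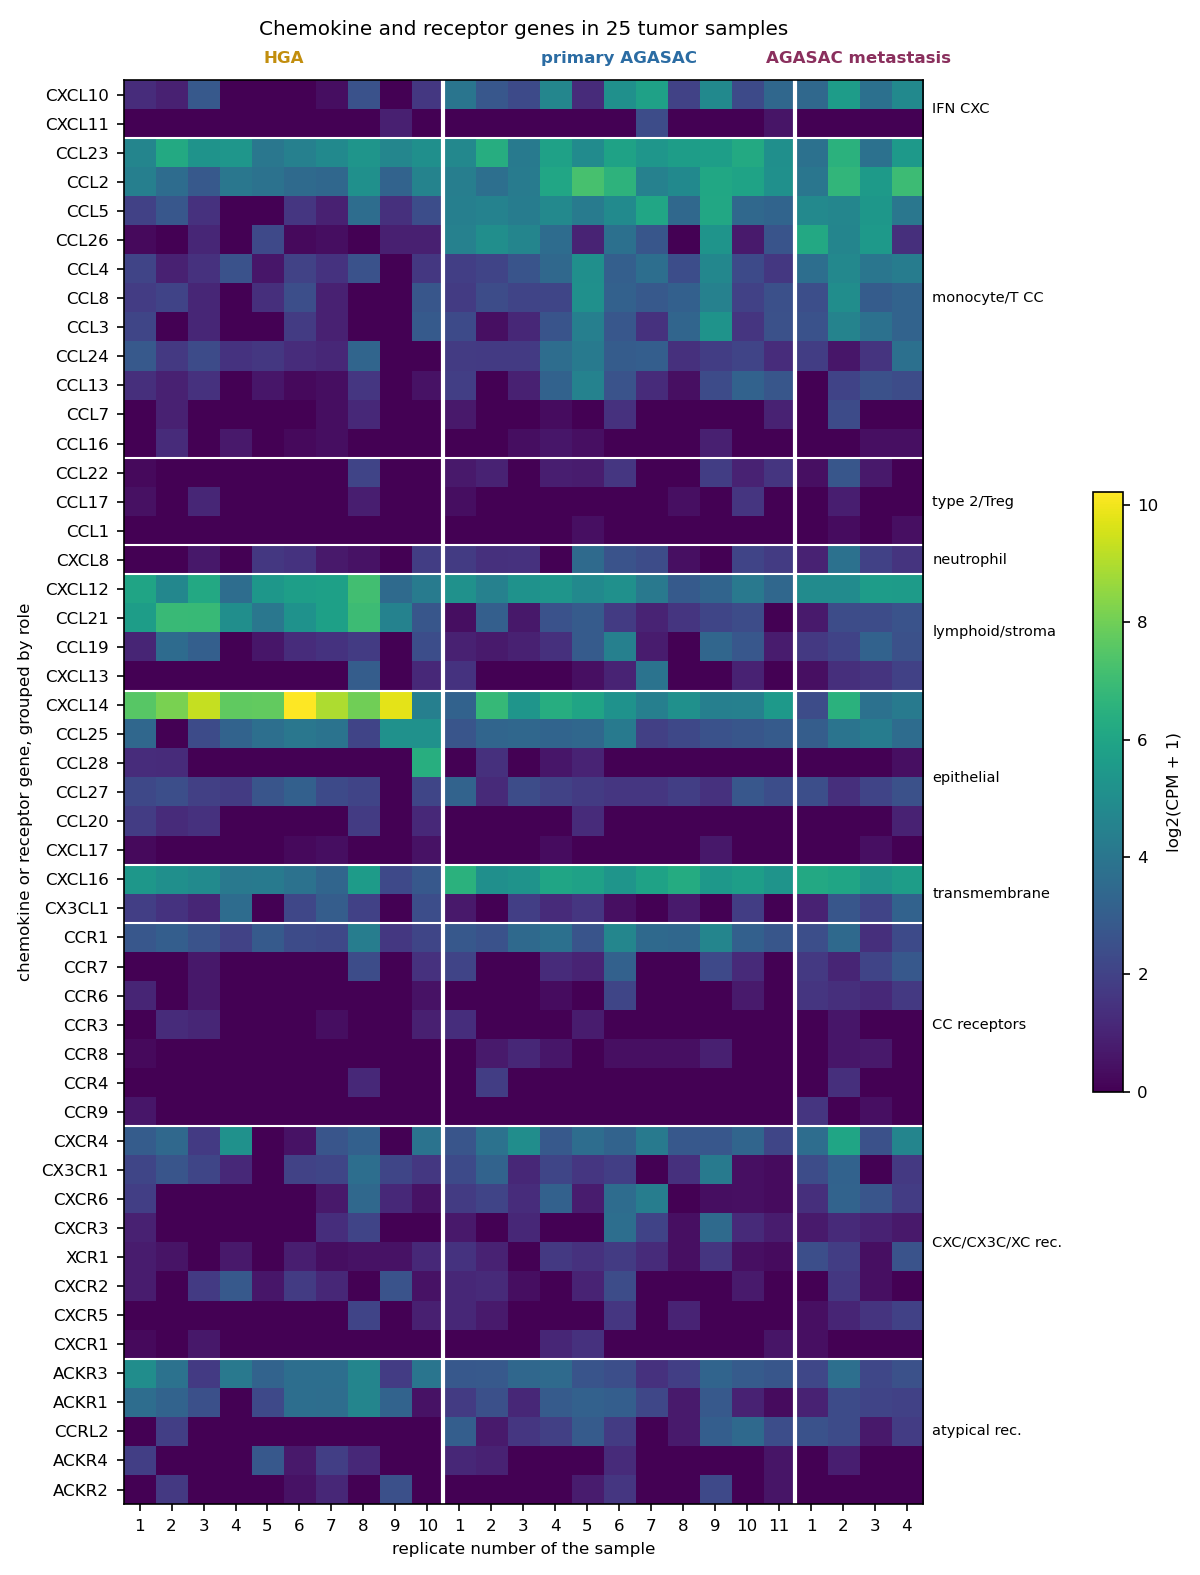
Level of 49 of the 50 chemokine and receptor genes (vertical axis, grouped by role, most abundant first) in each of the 25 samples (horizontal axis, numbered within HGA, primary AGASAC and AGASAC metastasis), colored by log2(CPM + 1). CXCL14 and CCL21 are bright in nearly all HGA, CXCL10, CCL5 and CCL26 are bright mainly in AGASAC, and most receptors are dark in all samples.

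The labels of the tumors were set beside epithelial markers, and no sample stood against its label. These marker lists were chosen with earlier results of these data known, so they are not an independent check of the labels. The 9 glandular markers summed to 701 to 1763 CPM in HGA and to 5764 to 12455 CPM in the 15 AGASAC samples, while the 10 squamous and sebaceous markers summed to 5921 to 17978 CPM in HGA and to 141 to 1961 CPM in AGASAC. PIP, a secreted protein of apocrine glands, was at 0 in 7 of 10 HGA and at 887 CPM or more in every AGASAC sample. Some libraries stood apart in other ways. The 9 skeletal muscle markers summed to 1112 CPM in primary AGASAC 5, 657 in primary AGASAC 2 and 558 in primary AGASAC 4, against a median of 177 CPM in primary AGASAC, 0.424 to 36.7 CPM in HGA and 4.82 to 8.95 CPM in the metastases. The 12 T cell markers summed to 160.4 CPM in primary AGASAC 7, 149.9 in primary AGASAC 6 and 70.5 in primary AGASAC 9, the highest of that group, and to 76.8 CPM in HGA 8, the highest of the adenomas. HGA 10 had the lowest sum of squamous and sebaceous markers among HGA, 5921 CPM, and the lowest sum of glandular markers, 701 CPM. RNA was extracted in batches 4 to 9, which held HGA, primary AGASAC and metastases in unequal numbers, and batches 5, 6 and 8 held at least 2 samples of both primary tumor types. The sequencing files were named in 2 formats: format A covered 9 HGA, 3 primary AGASAC and all 4 metastases, format B covered 1 HGA and 7 primary AGASAC, and that of primary AGASAC 4 is unknown.

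The comparison of HGA with primary AGASAC asks how the benign and the malignant tumor differ in the signals that guide leukocytes. CCL21, which guides dendritic cells and T cells into lymphatic vessels and nodes, and CXCL14, a homeostatic chemokine of epithelia, were higher in HGA. CXCL10, CCL5, CCL4, CCL2 and CXCL16, which draw T cells, monocytes and natural killer cells, were lower in HGA. Of the 50 genes, 16 passed the filter on low counts, and 7 were called (2 higher and 5 lower in HGA) by edgeR, for which p after Benjamini-Yekutieli adjustment had to stay within 0.05 and the log2 fold change (log2FC) had to reach 1 in either direction, against 25.1% of all 12070 genes tested. A gene had to be abundant enough in one of the groups to be tested, so the 16 do not stand for all 50. By library size alone, without TMM, 1053 of all genes were called higher and 2156 lower in HGA, in place of 1523 and 1509, with a median log2FC over all genes of −0.33 in place of −0.03. The same 7 chemokine genes were called in the same direction there, with CCL8 added as lower.

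Among the ligands of lymphoid tissue and stroma, CCL21 was at 5.59 to 126 CPM in HGA (median 43.0) and at 0 to 7.52 CPM in primary AGASAC (median 2.41). All HGA other than HGA 10 lay above every primary AGASAC, so the groups overlapped through that adenoma alone. The log2FC was 4.28 (SE 0.59, n = 10 and 11), a 19.4-fold difference, with an adjusted p of 2.64e-05. Within extraction batches 5, 6 and 8 it was 5.09, 4.07 and 3.27, and within naming format A it was 4.53. CXCL12, the stromal ligand of CXCR4, was at 10.6 to 139 CPM in HGA (median 46.4) and at 6.37 to 39.2 CPM in primary AGASAC (median 21.2). Its highest level was in HGA 8, and 6 of 10 HGA lay above every primary AGASAC, but it was not called (log2FC 1.11, SE 0.40, adjusted p 0.268). CCL19, which shares the receptor CCR7 with CCL21, was scarce at 0 to 10.8 CPM in HGA (median 1.62) and 0 to 21.02 CPM in primary AGASAC (median 0.904), with its peak in primary AGASAC 6. CXCL13, which draws B cells into follicles, was at 0 in 8 of 10 HGA and 6 of 11 primary AGASAC, and its highest levels were 13.6 CPM in primary AGASAC 7 and 6.98 CPM in HGA 8. Neither CCL19 nor CXCL13 passed the filter, and the difference in CCL21 was not shared by the level of CCL19 beside it.

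Lymphatic vessels are a known source of CCL21, and their 6 markers in the table summed to 54.5 to 166 CPM in HGA (median 89.3) and to 29.2 to 638 CPM in primary AGASAC (median 74.1). These ranges overlapped, and the top value came from primary AGASAC 2, in which MMRN1 was at 575 CPM. All 6 markers were tested, of which FLT4 was higher (log2FC 1.06, SE 0.24, adjusted p 0.00815) and PROX1 lower in HGA (log2FC −2.18, SE 0.59, adjusted p 0.0364). LYVE1 was at 1.27 to 16.7 CPM in HGA (median 7.82) and at 0 to 6.37 CPM in primary AGASAC (median 2.07). The 7 markers of follicular dendritic cells and node stroma, led by CLU, summed to 64.5 to 197 CPM in HGA (median 109.6) and 96.7 to 298 CPM in primary AGASAC (median 169), with 3 tested and 0 called, and MADCAM1 was at 0 in all HGA. The part of either cell type in the level of CCL21 was not tested. In bulk tissue, fewer cells of a type and less RNA per cell cannot be told apart.

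Among the epithelial and mucosal ligands, CXCL14 was at 20.2 to 1179.9 CPM in HGA (median 268) and at 8.14 to 115 CPM in primary AGASAC (median 36.2). Every HGA but HGA 10 exceeded every primary AGASAC, with peaks in HGA 6 and HGA 9, while HGA 10 lay below the median of the carcinomas. The difference was 10.1-fold (log2FC 3.34, SE 0.52, adjusted p 0.000119), and the log2FC within batches 5, 6 and 8 was 4.09, 1.99 and 3.79, and 3.17 within format A. Squamous and sebaceous markers, summed above, were also higher in HGA, where 7 of 9 tested were called higher and 0 lower, and KRT14 was the most abundant at 2359 to 11496 CPM. KRT14 was at 0 in 4 of 11 primary AGASAC and at most 9.18 CPM there. The part of epithelial content in the level of CXCL14 was not tested. CCL25, known from thymus and gut, was at 0 to 34.8 CPM in HGA (median 11.0) and 2.80 to 16.9 CPM in primary AGASAC (median 6.56). It was not called (log2FC 0.89, SE 0.49, adjusted p 1), and HGA 9 and HGA 10 held its highest levels.

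CCL28, which is secreted by mucosal and glandular epithelium, had 196 counts in HGA 10, or 84.3 CPM, where it was the most abundant of all 50 genes. It was at 1.45 and 1.36 CPM in HGA 1 and HGA 2, at 0 in the other 7 HGA, and at 0 to 1.63 CPM in primary AGASAC. HGA 10 thus stood alone among the adenomas, with low CXCL14 and CCL21 and high CCL28. It was also the only sample of extraction batch 9 and the only adenoma in naming format B, so tumor and batch cannot be told apart there. CCL27, which is made by keratinocytes, was similar in all groups, with 0 to 7.75 CPM in HGA (median 3.53) and 1.31 to 8.44 CPM in primary AGASAC (median 2.68). CCL20, the ligand of CCR6, reached 2.53 CPM in HGA and 1.39 CPM in primary AGASAC, where 10 of 11 tumors were at 0. CXCL17, a mucosal chemokine, had 1 or 2 counts at most in any sample, with 8 counts over all 25. None of CCL28, CCL27, CCL20 and CXCL17 passed the filter in this comparison.

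**Figure D2:**
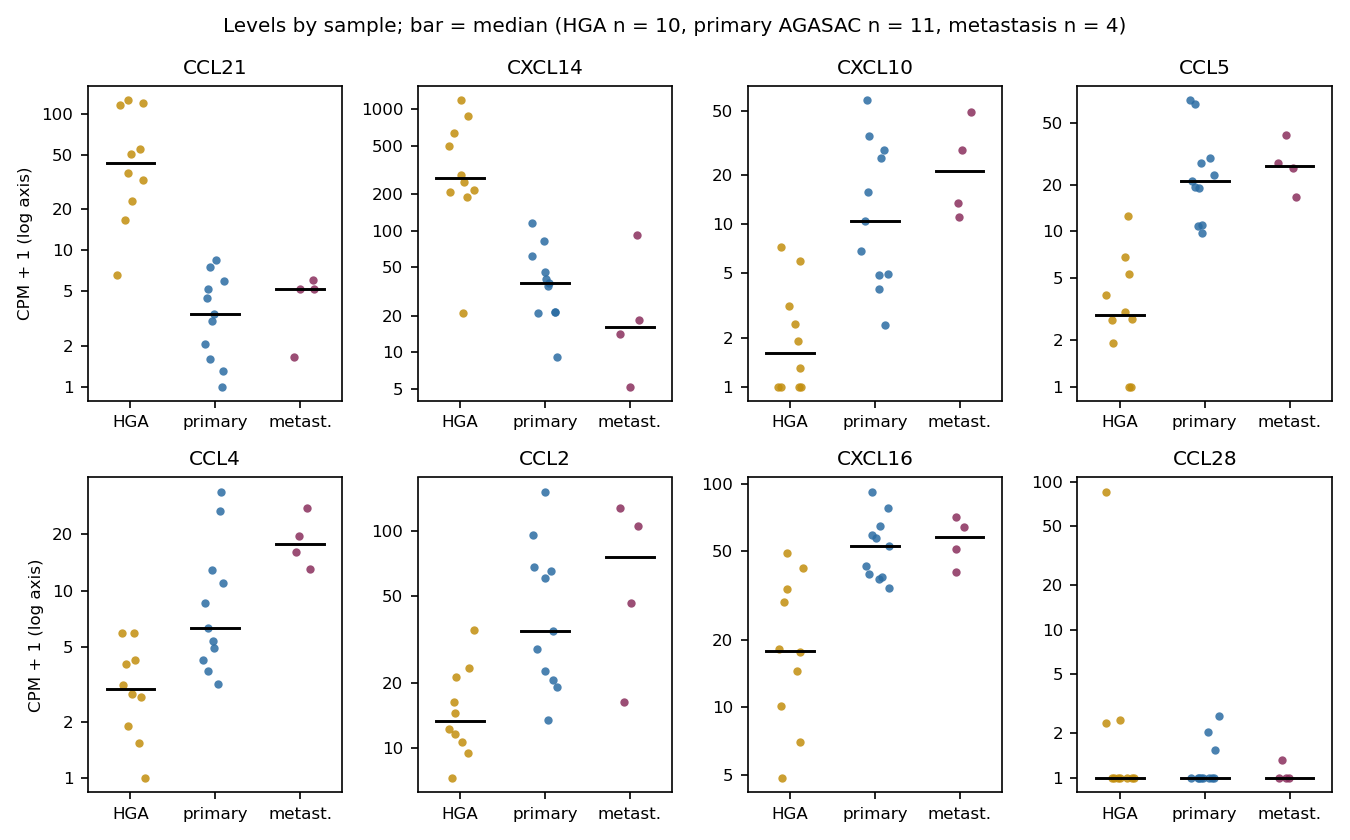
CPM + 1 on a log axis of 8 chemokine genes in each sample of HGA (n = 10), primary AGASAC (n = 11) and metastasis (n = 4), with a bar at the group median. CCL21 and CXCL14 are highest in HGA apart from 1 low adenoma, CXCL10, CCL5, CCL4, CCL2 and CXCL16 are higher in AGASAC with overlap, and CCL28 stands high in HGA 10 alone.

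Of the interferon-inducible ligands, CXCL10, which draws T cells through CXCR3, was at 0 to 6.27 CPM in HGA (median 0.604) and at 1.39 to 57.0 CPM in primary AGASAC (median 9.48). HGA 4, 5, 6 and 9 were at 0, the peak was in primary AGASAC 7, and 6 of 11 carcinomas lay above every HGA. The log2FC was −3.41 (SE 0.78, adjusted p 0.00978), a 10.6-fold lower level in HGA. Within batches 5, 6 and 8 it was −4.05, −4.90 and −5.46, and within format A −2.40. CXCL11, of the same family, was near 0 in all samples, with 4.19 CPM in primary AGASAC 7, 0.486 CPM in primary AGASAC 11 and 0.848 CPM in HGA 9 as its only counts.

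Of the ligands that attract monocytes and T cells, CCL5, which is released by T cells and natural killer cells, was at 0 to 11.5 CPM in HGA (median 1.88) and at 8.75 to 68.8 CPM in primary AGASAC (median 20.2). Only HGA 8 reached into the range of the carcinomas, and primary AGASAC 9 and 7 were the highest. HGA had an 8.38-fold lower level (log2FC −3.07, SE 0.56, adjusted p 0.000871), and the within-batch log2FC was −3.46, −3.16 and −3.68 in batches 5, 6 and 8, and −2.72 in format A. CCL4, which activated macrophages and T cells release, was at 0 to 4.93 CPM in HGA (median 1.99) and at 2.19 to 32.6 CPM in primary AGASAC (median 5.34). Primary AGASAC 5 and 9 held the highest levels, and 6 of 11 carcinomas lay above all HGA. It was 4.14-fold lower in HGA (log2FC −2.05, SE 0.56, adjusted p 0.0441), with −2.12, −2.30 and −2.34 within batches 5, 6 and 8, and −0.65 within format A. That call rested on single libraries: it held only in the 5 fits that left out HGA 4, HGA 8 or primary AGASAC 1, 2 or 11, while in the other 16 CCL4 either missed the threshold or failed the filter.

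CCL2, the main attractant of monocytes, was at 6.27 to 34.1 CPM in HGA (median 12.4) and at 12.4 to 150.3 CPM in primary AGASAC (median 33.5). It was highest in primary AGASAC 5 and 6, and 5 of 11 carcinomas lay above HGA 8, the highest adenoma. The log2FC was −1.74 (SE 0.41, adjusted p 0.0128), or 3.34-fold lower in HGA, and −0.89, −2.36 and −2.55 within batches 5, 6 and 8. Within format A, which holds primary AGASAC 1, 2 and 3, it was −0.18, so that the difference in CCL2 was small there. CCL8, which is close to CCL2, was at 0 to 5.59 CPM in HGA (median 1.38) and 2.41 to 34.0 CPM in primary AGASAC (median 4.62). It was not called by edgeR (log2FC −2.11, SE 0.64, adjusted p 0.0862), but it was by DESeq2 (log2FC −2.20, SE 0.63, adjusted p 0.0243) and in edgeR without HGA 10. CCL23, a monocyte attractant and among the most abundant of the 50 genes, was at 15.6 to 71.9 CPM in HGA (median 30.5) and 17.2 to 82.0 CPM in primary AGASAC (median 50.9). The ranges of CCL23 nearly coincided (log2FC −0.46, SE 0.27, adjusted p 1), with −0.07, −0.59 and −0.88 within batches 5, 6 and 8, and −0.29 within format A.

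The other CC ligands of this kind did not pass the filter. CCL26, a ligand of CCR3 on eosinophils, was at 0 to 3.78 CPM in HGA (median 0.254) and at 0 to 38.4 CPM in primary AGASAC (median 11.1). Primary AGASAC 9, 2, 3 and 1 held over 20 CPM, primary AGASAC 8 had 0 counts, and 8 of 11 carcinomas lay above every HGA. DESeq2, which tests it, called CCL26 lower in HGA (log2FC −4.35, SE 0.81, adjusted p 8.25e-06). CCL3, the neighbor and close relative of CCL4, was at 0 to 6.45 CPM in HGA (median 0.455) and 0.327 to 37.0 CPM in primary AGASAC (median 4.86). CCL13, another monocyte attractant, was at 0 to 2.05 CPM in HGA (median 0.485) and 0 to 21.9 CPM in primary AGASAC (median 4.01), and DESeq2 called it lower in HGA (log2FC −2.78, SE 0.75, adjusted p 0.0127). CCL24, which shares CCR3 with CCL26, differed little, with 0 to 9.04 CPM in HGA (median 2.00) and 1.46 to 17.4 CPM in primary AGASAC (median 2.58). CCL7, a relative of CCL2, was at most 1.72 CPM, and CCL16, a ligand of CCR1, at most 1.36 CPM in the primary tumors. Primary AGASAC 5 held the highest CCL2, CCL4, CCL8, CCL13 and CCL24 of all 25 samples.

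CXCL16, a membrane-bound ligand of CXCR6 made by macrophages and epithelium, was at 3.82 to 48.1 CPM in HGA (median 16.9) and at 33.3 to 91.3 CPM in primary AGASAC (median 51.6). HGA 8 and HGA 1 reached into the range of the carcinomas, and primary AGASAC 1 was the highest. It was 2.40-fold lower in HGA (log2FC −1.26, SE 0.35, adjusted p 0.0434), with −0.99, −0.71 and −2.38 within batches 5, 6 and 8, and −1.17 within format A. The call was kept in 8 of the 21 fits that each left out 1 tumor, those without HGA 1, 2 or 8 or primary AGASAC 2, 3, 6, 9 or 11, and missed in the other 13. CX3CL1, the other membrane-bound ligand, was at 0 to 11.1 CPM in HGA (median 2.79) and 0 to 2.67 CPM in primary AGASAC (median 0.603). It did not pass the filter in edgeR, and 6 of 10 HGA lay above every primary AGASAC.

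Macrophages, T cells and dendritic cells make or answer many of these ligands. The 12 macrophage and monocyte markers, led by C1QA, summed to 109 to 380.0 CPM in HGA (median 241) and 215 to 625 CPM in primary AGASAC (median 416), and of 11 tested, CD14 (log2FC −1.33, SE 0.33, adjusted p 0.0183) and C1QB (log2FC −1.26, SE 0.29, adjusted p 0.00865) were lower in HGA and 0 were higher. The 12 T cell markers, among which CD8A had the highest mean in HGA and CD2 in primary AGASAC, summed to 3.67 to 76.8 CPM in HGA (median 19.8) and 19.2 to 160.4 CPM in primary AGASAC (median 33.2), with 3 tested and 0 called. CD3E was at 0 in 4 of 10 HGA and in 0 of 11 primary AGASAC, and CD8A was at 0 in 6 HGA and 3 primary AGASAC. The sums of both lists overlapped between the groups, and the 2 lower of 11 macrophage markers stand beside 12.5% of all genes called lower. Of the 7 dendritic cell markers in the table, led by FSCN1 in HGA and by CD83 in primary AGASAC, 2 were tested and CD83 was lower in HGA (log2FC −2.82, SE 0.65, adjusted p 0.00923), and their sums were 24.1 to 97.8 CPM in HGA (median 48.0) and 19.4 to 116 CPM in primary AGASAC (median 63.6). The part of these cells in the lower ligands was not tested. Without primary AGASAC 6, 7 and 9, which had the highest T cell marker sums, CCL2, CCL21, CCL5 and CXCL14 were called. CXCL10 (log2FC −2.39, SE 0.77, adjusted p 0.16) and CXCL16 (log2FC −1.32, SE 0.39, adjusted p 0.0911) lost their calls there, and CCL4 did not pass the filter. Without the carcinomas rich in muscle markers (primary AGASAC 2, 4 and 5), 5 were called, CCL2, CCL21, CCL5, CXCL10 and CXCL14. Without HGA 8 and HGA 10, CCL26 was added and CCL4 was lost. These sets of samples to leave out were chosen after seeing the data.

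None of the receptors was called between HGA and primary AGASAC, and 3 of 16 were tested. CCR1, a receptor of monocytes and neutrophils for CCL3, CCL5 and CCL23, was at 2.12 to 18.9 CPM in HGA (median 4.61) and 4.90 to 24.8 CPM in primary AGASAC (median 9.72), with a log2FC of −0.85 (SE 0.39, adjusted p 0.802). HGA 8 was the highest adenoma for CCR1, and primary AGASAC 6 and 9 were the highest carcinomas. CXCR4 was at 0 to 35.0 CPM in HGA (median 6.17) and 3.40 to 30.8 CPM in primary AGASAC (median 8.61), with a log2FC of −0.36 (SE 0.63, adjusted p 1). Its levels scattered widely, from 0 in HGA 5 and HGA 9 to over 30 CPM in HGA 4 and primary AGASAC 3.

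The other receptors were too scarce to be tested. CX3CR1, the receptor for CX3CL1 on monocytes, was the most abundant of them, at 0 to 11.9 CPM in HGA (median 3.37) and 0 to 17.2 CPM in primary AGASAC (median 2.08). CXCR6, the receptor for CXCL16 on T cells, was at 0 to 9.86 CPM in HGA (median 0.215) and 0 to 18.9 CPM in primary AGASAC (median 1.48). CXCR3, the T cell receptor for CXCL10, was at 0 in 7 of 10 HGA, and reached 11.7 CPM in primary AGASAC 6 and 10.6 CPM in primary AGASAC 9. CXCR6 was highest in primary AGASAC 7 and 6, which had the highest T cell marker sums, but was at 0.287 CPM, from 1 count, in primary AGASAC 9. CCR7, the receptor for CCL21 and CCL19, was at 0 in 7 of 10 HGA and in 5 of 11 primary AGASAC. It reached 4.11 CPM in HGA 8, which also had the highest CCL21, and 7.93 CPM in primary AGASAC 6. Counts of this receptor were thus scarce in both groups, also in most adenomas with high CCL21. XCR1, which marks cross-presenting dendritic cells, was at 0 to 1.29 CPM in HGA and 0 to 2.41 CPM in primary AGASAC. CXCR2, a neutrophil receptor, was at 0 to 6.15 CPM in HGA (median 0.969) and 0 to 4.13 CPM in primary AGASAC (median 0.297), and CXCR1, its relative, was at most 0.570 and 1.74 CPM.

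The atypical receptors take up or carry chemokines without guiding cells. ACKR3, which clears CXCL12, was at 2.28 to 31.1 CPM in HGA (median 12.7) and 1.75 to 10.6 CPM in primary AGASAC (median 6.03). It had a log2FC of 1.18 (SE 0.38, adjusted p 0.138) and was above all carcinomas in 7 of 10 HGA. It was called in edgeR without HGA 3 or HGA 9, with Benjamini-Hochberg adjustment, and with all 15 AGASAC samples in place of the primaries. ACKR1, which carries chemokines across the endothelium of venules, was at 0 to 23.8 CPM in HGA (median 8.54) and 0.243 to 7.98 CPM in primary AGASAC (median 3.50), with a log2FC of 1.19 (SE 0.59, adjusted p 1). The 8 markers of blood endothelium, led by VWF, summed to 190 to 572 CPM in HGA (median 257) and 56.3 to 243 CPM in primary AGASAC (median 147), and of 6 tested, CLDN5 (log2FC 1.95, SE 0.51, adjusted p 0.0322) and CDH5 (log2FC 1.47, SE 0.38, adjusted p 0.0239) were higher in HGA. The part of vessels in ACKR1 and ACKR3 was not tested. CCRL2, which binds chemerin and presents it to other cells, was at 0 in 9 of 10 HGA, at 2.71 CPM in HGA 2, and at 0 to 10.1 CPM in primary AGASAC (median 2.78). It failed the filter, and DESeq2 called it lower in HGA (log2FC −3.95, SE 1.01, adjusted p 0.00608). ACKR4, which clears CCL19, CCL21 and CCL25, was at 0 to 5.93 CPM in HGA and 0 to 1.38 CPM in primary AGASAC, and ACKR2, which clears inflammatory CC ligands, reached 4.67 CPM in HGA 9 and 3.73 CPM in primary AGASAC 9.

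At the smaller size of a single batch, 0 of the chemokine genes were called in batch 5, 6 or 8 by edgeR, where 262, 637 and 338 of all genes were called. At an unadjusted p under 0.05 there were 5 of 16, 10 of 22 and 8 of 22 chemokine genes, beside 3179 of 12356, 4827 of 13159 and 4642 of 13758 of all genes. Each of the 7 genes called over all tumors kept its direction in all of these batches and in format A, where CCL21 and CCL26 were called. With batch as a term in the fit of all 21 tumors, CCL2, CCL21, CCL5, CXCL10 and CXCL14 were called and CCL4 (adjusted p 0.0626) and CXCL16 (adjusted p 0.0831) were not.

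The comparison of the metastases with HGA shares its adenomas with the comparison above, so its calls are not independent of those. CXCL10, CCL5, CCL4 and CCL2 were higher in the lymph node metastases and CCL21 was lower. Of the 50 genes, 21 were tested and 5 called (4 higher and 1 lower in the metastases), against 16.1% of all 13195 genes tested (7.69% higher and 8.4% lower). Library size alone gave the same 5 genes, while over all genes it called 1383 higher and 788 lower in place of 1015 and 1109, with a median log2FC of 0.26 in place of −0.02.

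CXCL10 was at 10.1, 48.3, 12.5 and 27.8 CPM in metastases 1 to 4, above every HGA (0 to 6.27 CPM). The difference was 15.4-fold (log2FC 3.95, SE 0.87, n = 4 and 10, adjusted p 0.0247). CCL5 was at 26.6, 24.4, 40.8 and 15.7 CPM in metastases 1 to 4 and did not overlap with HGA (0 to 11.5 CPM). It was 8.34-fold higher (log2FC 3.06, SE 0.69, adjusted p 0.0278). For CCL4 the 4 metastases were at 12.0, 26.5, 15.1 and 18.5 CPM, again all above HGA (0 to 4.93 CPM), with a log2FC of 2.91 (SE 0.58, adjusted p 0.0111). CCL2 was at 15.2, 104, 45.7 and 125.9 CPM in metastases 1 to 4 and at 6.27 to 34.1 CPM in HGA. Metastases 2, 3 and 4 lay above all adenomas and metastasis 1 did not, and the log2FC was 2.23 (SE 0.45, adjusted p 0.0121). CCL21 was at 0.649, 4.24, 4.18 and 5.11 CPM in metastases 1 to 4, below every HGA (5.59 to 126 CPM). The fold was 16.2 (log2FC −4.02, SE 0.82, adjusted p 0.0133). A lymph node is a place where CCL21 is normally made, but per the paper tissue next to the tumors was removed. How much node tissue was left in the metastases was not tested.

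CXCL14 was at 4.22, 91.3, 13.2 and 17.3 CPM in metastases 1 to 4, below all HGA in 3 of them, with HGA at 20.2 to 1179.9 CPM. Its log2FC of −3.79 (SE 0.96, adjusted p 0.063) missed the threshold in edgeR, and it was called by DESeq2 (log2FC −3.74, SE 0.73, adjusted p 5.94e-05) and in edgeR without HGA 10 or without metastasis 2. With every sample kept, edgeR called it in the fit of all 25 samples (adjusted p 0.0172), with at least 10 counts in every sample (adjusted p 0.0436) and with Benjamini-Hochberg adjustment (adjusted p 0.00626). CXCL16 was at 70.1, 63.1, 39.6 and 50.2 CPM in metastases 1 to 4, and CCL23 at 13.0, 89.7, 13.2 and 43.8 CPM. Neither was called against HGA, with a log2FC of 1.34 (SE 0.48, adjusted p 0.435) for CXCL16 and 0.23 (SE 0.47, adjusted p 1) for CCL23, which turned to −0.54 without metastasis 2.

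CCL26 was at 70.7, 23.9, 43.7 and 1.60 CPM in metastases 1 to 4 and at most 3.78 CPM in HGA. It failed the filter in edgeR, was called higher by DESeq2 (log2FC 5.69, SE 0.92, adjusted p 2.14e-07), and in edgeR without metastasis 4, which was the only metastasis within the range of HGA. CCL3 was at 4.87, 22.6, 12.9 and 8.63 CPM (log2FC 2.97, SE 0.90, adjusted p 0.185), and was called when HGA 10, the adenoma with the most of it, was left out. CCL8 was at 4.54, 31.3, 6.75 and 8.63 CPM (log2FC 2.65, SE 0.81, adjusted p 0.187). CCR6, a receptor of B cells and some T cells for CCL20, was at only 1.95, 1.59, 1.29 and 2.24 CPM in the metastases, yet above every HGA (0 to 1.09 CPM). It was not tested by edgeR, and DESeq2 gave an adjusted p of 1. For the other tested genes the log2FC ran from −1.62 for ACKR1 to 1.65 for CXCR4, all with an adjusted p of 1.

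The number of calls changed when single samples were left out. Without metastasis 2 only CXCL14 was called, without metastasis 1 or 3 CCL2, CCL4 and CXCL10 were called, and without HGA 1 CCL2, CCL21 and CCL4 were called. CCL2 and CXCL10 were also lost without metastasis 4, and CCL5 without HGA 3 or HGA 6. Metastases 3 and 4 were extracted in batch 5 and metastases 1 and 2 in batch 8, and no fit within a batch was made for this comparison.

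**Figure D3:**
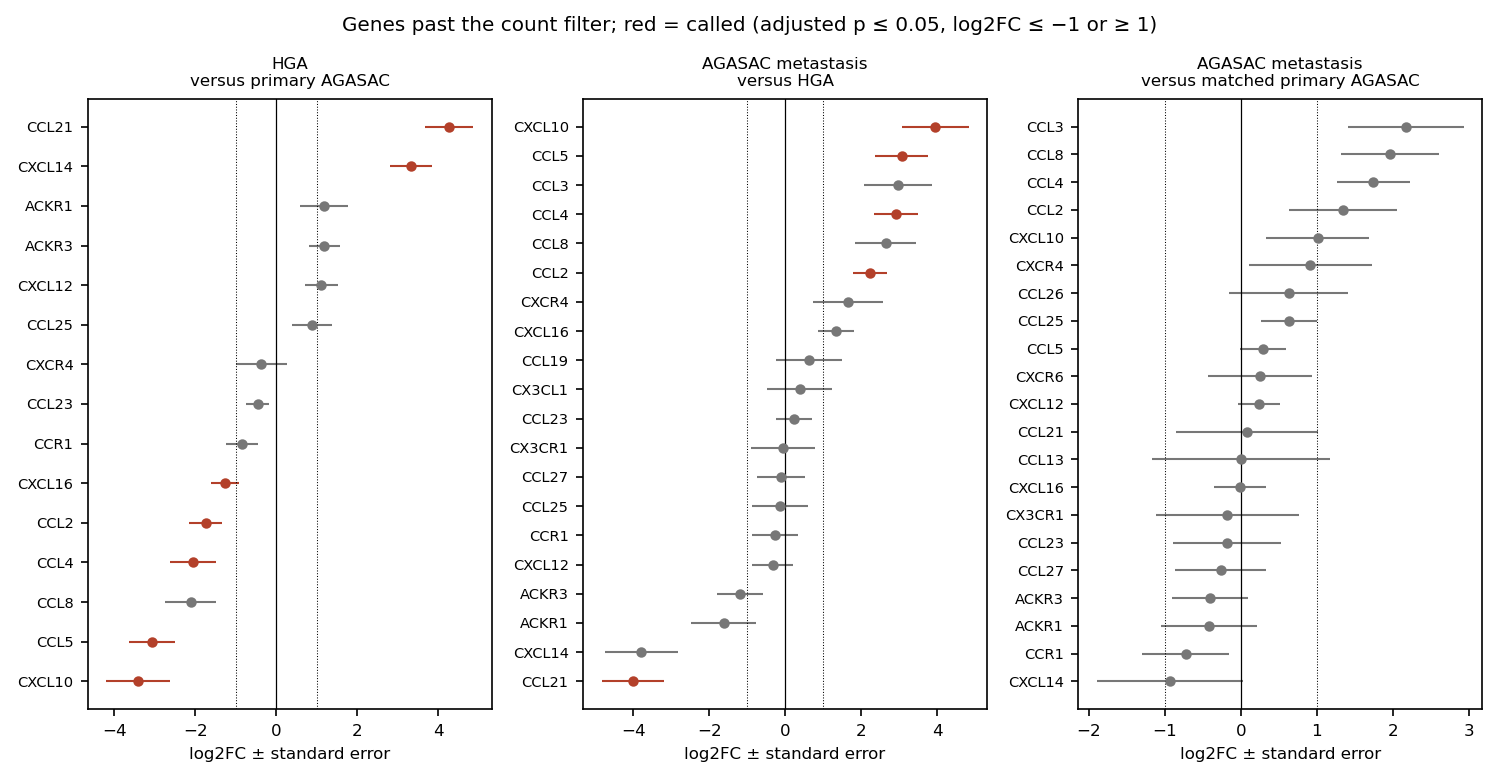
The log2FC with its standard error of tested chemokine and receptor genes in HGA against primary AGASAC, metastasis against HGA and metastasis against matched primary AGASAC, with called genes in red and dotted lines at a log2FC of −1 and 1. CCL21 lies farthest on the side of HGA in both comparisons with HGA, which share those samples, CXCL10 lies farthest on the side of AGASAC, and no gene is called between metastasis and matched primary.

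The comparison of the metastases with the primary AGASAC of the same 4 dogs asks what differs once the tumor has reached a lymph node. In every dog CCL4, CCL8 and CCL3 were higher in the metastasis and CXCL14 was lower, but none of these differences passed the threshold. Of the 50 genes 22 were tested and 0 called by edgeR, against 0% of all 12629 genes tested. At an unadjusted p under 0.05 there were 3 of the 22 and 145 of all genes. DESeq2 also called 0 of 48 tested and 5 of all genes, and had 7 of the 48 and 274 of all 21877 genes under an unadjusted p of 0.05. With the dog as a block, edgeR called 0 of the 22 and 1 of all genes, and had 5 of the 22 (CCL4, CXCL14, CCL8, CCL2 and CCL3) and 491 of all 12629 genes under an unadjusted p of 0.05.

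CCL4 was at 2.71, 3.27, 5.34 and 10.0 CPM in primary AGASAC 1 to 4, below each of the metastases given above. The log2FC was 1.74 (SE 0.48, n = 4 and 4, unadjusted p 0.00525, adjusted p 1), and 1.82 (SE 0.40) with the dog as a block. CCL8 was at 2.41, 4.25, 3.26 and 3.34 CPM in primary AGASAC 1 to 4, and its groups did not overlap either. Its log2FC was 1.96 (SE 0.64, unadjusted p 0.0136, adjusted p 1), and dog 2, at 31.3 CPM in the metastasis, had the widest gap. Without metastasis 2 the log2FC was 0.99. CCL3 was at 3.92, 0.327, 1.19 and 5.28 CPM in primary AGASAC 1 to 4. Although all 4 dogs had more in the metastasis, metastasis 1 lay below primary AGASAC 4, and the log2FC was 2.17 (SE 0.76, unadjusted p 0.0188, adjusted p 1). Against all 11 primary AGASAC in place of the matched 4, the log2FC was smaller, at 0.85 for CCL4, 0.53 for CCL8 and 0.54 for CCL3.

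CCL2 was higher in the metastasis of dogs 2, 3 and 4 and lower in that of dog 1, with primary AGASAC 1 to 4 at 19.6, 12.4, 18.1 and 64.5 CPM (log2FC 1.34, SE 0.71, adjusted p 1). CXCL10, at 14.8, 5.88, 3.85 and 24.5 CPM in primary AGASAC 1 to 4, followed the same pattern over dogs (log2FC 1.01, SE 0.68, adjusted p 1). CXCL14 was at 8.14, 115, 39.1 and 81.7 CPM in primary AGASAC 1 to 4, each above the metastasis of its dog. Its log2FC was −0.93 (SE 0.96, adjusted p 1), and with the dog as a block −1.27 (SE 0.33, adjusted p 1). It ran from −2.41 without metastasis 2 to −0.42 without primary AGASAC 2. CXCL16 was at 91.3, 33.3, 36.5 and 63.6 CPM in primary AGASAC 1 to 4, and was lower in the metastasis of dogs 1 and 4 and higher in that of dogs 2 and 3 (log2FC −0.01, SE 0.34, adjusted p 1; 0.07 with the dog as a block). CCL23, at 26.5, 82.0, 17.2 and 57.0 CPM in primary AGASAC 1 to 4, was lower in 3 of the 4 metastases (log2FC −0.18, SE 0.71, adjusted p 1), and turned to 0.27 without primary AGASAC 2, 0.12 without metastasis 1 and 0.11 without metastasis 3.

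**Figure D4:**
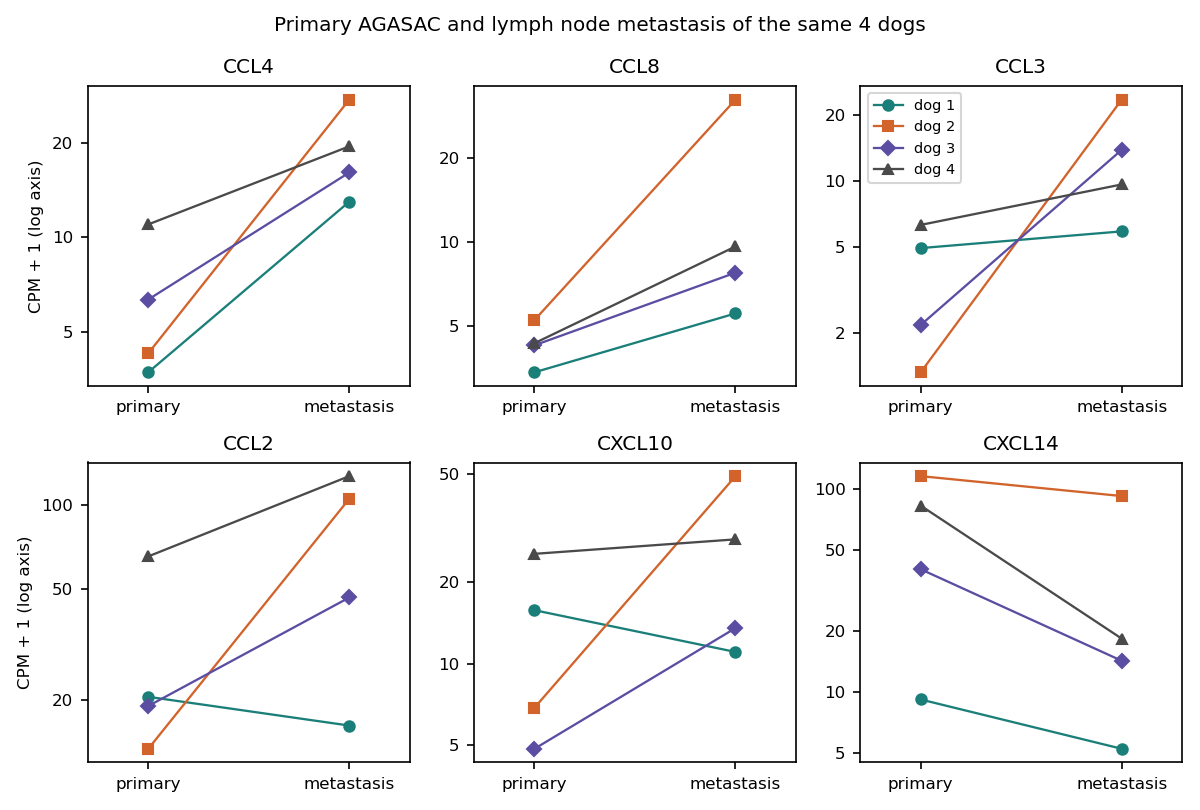
CPM + 1 on a log axis of 6 chemokine genes in the primary AGASAC and the lymph node metastasis of each of 4 dogs, joined by a line. CCL4, CCL8 and CCL3 lie higher in the metastasis of all 4 dogs and CXCL14 lower, while dog 1 goes the other way for CCL2 and CXCL10.

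Of the 50 genes, 9 were higher and 1 was lower in the metastasis of all 4 dogs, CCL4, CCL8, CCL3 and CXCL14 among them, and none of these was called. Among tested genes it was 5 higher and 1 lower of 22, beside 850 higher and 717 lower of all 12629. CCL19 was at 0.904, 0.654, 0.890 and 1.67 CPM in primary AGASAC 1 to 4 and at 2.27, 3.18, 8.36 and 4.79 CPM in metastases 1 to 4, so these did not overlap. CCR6 was at 0, 0, 0 and 0.278 CPM in primary AGASAC 1 to 4, below all metastases. Outside these dogs, primary AGASAC 6 held 3.45 CPM of CCR6, above every metastasis. XCR1 (4.54, 2.65, 0.322 and 5.11 CPM in the metastases), CX3CL1 (0.973, 5.57, 3.22 and 8.31 CPM) and CCL25 (7.14, 14.3, 18.3 and 11.2 CPM) were higher within each dog, but their groups overlapped. CCL21, by contrast, was at 0.301, 7.52, 0.593 and 5.00 CPM in primary AGASAC 1 to 4 and did not differ beyond its spread (log2FC 0.09, SE 0.93, adjusted p 1). CXCR4 was highest of all 25 samples in metastasis 2, at 62.9 CPM, with 11.7, 4.82 and 23.96 CPM in metastases 1, 3 and 4 against 5.42, 13.4, 30.8 and 6.11 CPM in the primaries (log2FC 0.91, SE 0.81, adjusted p 1). CCL26 was at 21.7, 32.4, 24.3 and 11.1 CPM in primary AGASAC 1 to 4, higher in the metastasis of dogs 1 and 3 and lower in that of dogs 2 and 4.

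Markers of lymph node cells were given beside these levels. The T cell markers summed to 66.5, 61.6, 86.8 and 63.6 CPM in metastases 1 to 4 and to 35.9, 33.01, 32.9 and 60.0 CPM in primary AGASAC 1 to 4. CD3G had the highest mean of them in the metastases. Of the 12, 8 were tested and 0 called against the primaries, and 8 tested and CD3G called higher against HGA (log2FC 3.62, SE 0.84, adjusted p 0.0343). The 10 B cell markers summed to 49.96, 25.7, 36.7 and 35.5 CPM in the metastases and to 44.0, 19.9, 15.1 and 27.5 CPM in the primaries, with 4 tested and 0 called. Both sums were higher in the metastasis of each dog. Neither list had a called gene against the primaries, and in dog 4 the T cell sums were close. MS4A1, a defining B cell marker, was at 3.45 to 4.87 CPM in the metastases. In primary AGASAC it was at 0 to 12.4 CPM (median 1.01), with 4 of 11 at 0. The markers of follicular dendritic cells and node stroma summed to 76.2, 452, 70.4 and 95.5 CPM in the metastases and 96.7, 298, 109 and 119.5 CPM in the primaries, with 3 tested and 0 called. CR2, which defines follicular dendritic cells, was at 0 in 1 metastasis, 8 of 11 primary AGASAC and 3 of 10 HGA. Muscle markers were at 31.9, 657, 21.9 and 558 CPM in the primaries and at most 8.95 CPM in the metastases, where CKM, MYH1 and MYH2 were at 0. Per the paper, tissue next to the tumors was removed to leave mostly tumor cells. The part of any remaining lymph node tissue or muscle in these levels was not tested.

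The 6 neutrophil markers in the table, led by S100A8, summed to 0 to 94.1 CPM in HGA (median 23.6), 1.68 to 44.1 CPM in primary AGASAC (median 11.8) and 22.1, 50.7, 32.8 and 69.3 CPM in the metastases, and MMP8 was at 0 in all HGA and primary AGASAC. In primary AGASAC 1 to 4 they summed to 18.7, 11.8, 7.71 and 7.23 CPM, below the metastasis of each dog, and the part of neutrophils in the ligands was not tested. None was called in any comparison, with 1 tested in HGA against primary AGASAC, 2 in the metastases against their primaries and 4 against HGA. CXCL8, the only neutrophil-attracting ligand that the rule on symbols takes in, was at 0 to 2.58 CPM in HGA (median 0.491), 0 to 10.4 CPM in primary AGASAC (median 2.41) and 0.973, 13.0, 2.89 and 1.92 CPM in the metastases. The symbols CXCL1, CXCL2, CXCL3, CXCL5, CXCL6, CXCL9, CCL11 and XCL1 were searched, and these ligands were not analysed here. CXCL8 peaked in metastasis 2, and CCL22, CCL7, CXCR4 and CCL23 had their highest level of all 25 samples there as well. Metastasis 2 had the highest sums of macrophage markers (573 CPM against 254, 223 and 371 in metastases 1, 3 and 4) and of fibroblast markers (12992 CPM against 744, 1327 and 3029.6).

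The ligands of type 2 and regulatory T cells were near the limit of detection. CCL22, a ligand of CCR4 made by dendritic cells and macrophages, was at 0 in 8 of 10 HGA with 3.29 CPM in HGA 8, at 0 to 2.58 CPM in primary AGASAC, and at 0.324, 5.57, 0.643 and 0 CPM in the metastases. CCL17, its relative, had 17 counts over all 25 samples, with a peak of 1.96 CPM in primary AGASAC 10. CCL1, a ligand of CCR8, had 3 counts in all. Their receptors were as scarce: CCR4 had counts in 3 samples, with 2.61 CPM in primary AGASAC 2, 1.59 CPM in metastasis 2 and 1.23 CPM in HGA 8, and CCR8 was at most 1.19 CPM. At this depth no difference could be shown for them.

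Of the remaining genes, CCR3, the eosinophil receptor for CCL26 and CCL24, was at most 1.51 CPM, from 5 counts in primary AGASAC 1. CCR9, the receptor for CCL25, had 10 counts in all, with 0 in all 11 primary AGASAC and 1.95 CPM in metastasis 1. CXCR5, the receptor for CXCL13 on B cells, was at 0.324, 1.06, 1.93 and 2.88 CPM in the metastases, 0 in 8 of 10 HGA and 7 of 11 primary AGASAC, and 3.29 CPM in HGA 8. CXCL13 itself was at 0.324, 1.59, 1.93 and 2.88 CPM in the metastases. CCR7 was at 2.27, 1.06, 3.22 and 6.07 CPM in the metastases. HGA 8 held the highest level among HGA for CCR7, CXCR5, CXCL13, CXCR3, CXCR6, CX3CR1 and CCR1 along with CCL21 and CXCL12, and it had the highest T cell and B cell marker sums of the adenomas, 76.8 and 72.3 CPM.

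The rest of the pathway was described from lists. Of 21 genes of the response to interferon gamma, 20 are in the table and 14 were tested between HGA and primary AGASAC, where 2 were higher and 8 lower in HGA, against 12.6% and 12.5% of all genes, with a median log2FC of −1.42 against −0.03 over all genes tested. PSMB9 and TAP1, which prepare and load peptides for major histocompatibility complex class I, were lower (log2FC −3.00, SE 0.39, and −2.80, SE 0.41), while the kinase JAK2 (log2FC 2.55, SE 0.34) and its inhibitor SOCS1 (log2FC 2.21, SE 0.57) were higher in HGA. IFNG itself had 0 counts in all 10 HGA, 0 to 5.56 CPM in primary AGASAC (median 0.326) and 0.796 to 9.41 CPM in the metastases. Against HGA the metastases had 6 of 14 tested genes higher and 1 lower, against 7.69% and 8.4% of all genes, with a median log2FC of 1.93 against −0.02 over all genes. PSMB8 (log2FC 2.68, SE 0.52), TAP1 (log2FC 2.66, SE 0.46) and STAT2 (log2FC 1.63, SE 0.18) were higher and JAK2 was lower (log2FC −2.19, SE 0.54). Between metastases and their primaries 15 were tested and 0 called, with a median of −0.09.

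Of 51 genes that carry the signal of chemokine receptors, 49 are in the table and 40 were tested between HGA and primary AGASAC, with 5 higher and 7 lower in HGA and a median log2FC of −0.38. That is close to the 25.1% called over all genes. The G protein subunit GNG11 (log2FC 4.92, SE 0.43; median 529.8 CPM in HGA and 22.2 in primary AGASAC) and the Rac activator TIAM1 (log2FC 3.50, SE 0.35) were higher in HGA. The G protein subunit GNAQ (log2FC −3.21, SE 0.33) and RGS1, which dampens chemokine receptor signals in lymphocytes (log2FC −2.32, SE 0.49), were lower. In the metastases against HGA, 5 of 44 tested were higher and 3 lower (median 0.56), close to the 16.1% called over all genes, with GNAQ at 3.23 (SE 0.42), RGS1 at 2.99 (SE 0.60), TIAM1 at −3.47 (SE 0.41) and GNG11 at −4.78 (SE 0.82). Between metastases and their primaries 45 were tested and 0 called (median 0.21).

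Of 20 genes of the lymphotoxin and NF-kappa B axis, which drives homeostatic chemokines in lymphoid tissue, 13 were tested between HGA and primary AGASAC. The inhibitor NFKBIA was higher in HGA (log2FC 2.11, SE 0.27; median 799 against 196 CPM), 0 were lower, and the median was 0.02. In both other comparisons 15 were tested and 0 called, with medians of 0.27 against HGA and 0.14 against the matched primaries. Of 17 proteases and glycan carriers, 15 were tested between HGA and primary AGASAC, with 3 higher in HGA and 1 lower (median 0.05), again about the 25.1% of all genes. The heparan sulfate carriers SDC1 (log2FC 5.23, SE 0.35) and GPC1 (log2FC 2.06, SE 0.18) and the protease ADAM10, which sheds CXCL16 and CX3CL1 from membranes (log2FC 1.18, SE 0.25), were higher. DPP4, which trims and inactivates CXCL10 among others, was lower in HGA (log2FC −3.18, SE 0.81). The metastases had SDC1 (log2FC −5.18, SE 0.68) and GPC1 (log2FC −1.85, SE 0.27) lower than HGA among 16 tested, with 0 higher (median 0.23), and 0 of 15 called against their primaries (median 0.12).

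The lists of cells not yet named gave few calls. The 7 plasma cell markers, of which 3 were tested, had SDC1 higher and PIM2 lower in HGA than in primary AGASAC (adjusted p 0.000773), and their sums of 220 to 916 CPM in HGA (median 498), 79.5 to 255 CPM in primary AGASAC (median 110.0) and 92.1, 246, 97.1 and 124.6 CPM in the metastases were led by SDC1, which epithelium also expresses, in HGA and by JCHAIN in both AGASAC groups. Of 3 tested in the metastases against HGA SDC1 was lower, and of 4 against the primaries 0 were called. Of the B cell markers 1 was tested and 0 called between HGA and primary AGASAC, with sums of 6.15 to 72.3 CPM (median 15.5) and 15.1 to 53.1 CPM (median 27.5), MS4A1 at 0 in 9 of 10 HGA, and 4 tested and 0 called in the metastases against HGA. All 8 fibroblast markers, led by COL1A1, were tested and 0 called in each comparison, with sums of 1232 to 5782 CPM in HGA (median 2591) and 1025 to 7966 CPM in primary AGASAC (median 3576). In the metastases against HGA, 1 of 11 tested macrophage markers, CD14, was higher (log2FC 1.69, SE 0.39, adjusted p 0.0313), VWF of 8 endothelial markers was lower (log2FC −1.71, SE 0.33), and 0 of 3 dendritic cell, 6 lymphatic, 3 node stroma and 1 muscle marker were called. Against the matched primaries 0 of 11 macrophage, 6 endothelial, 2 dendritic cell, 3 lymphatic, 4 plasma cell, 2 muscle, 9 glandular and 3 squamous markers were called. Of the muscle markers ACTA1 and TTN were tested and lower in HGA than in primary AGASAC (log2FC −6.38, SE 1.03, and −6.28, SE 0.96), and of the glandular markers 8 of 9 were lower in HGA, among them EPCAM (log2FC −1.46, SE 0.22) and ELF3 (log2FC −2.53, SE 0.50). TP63 (log2FC 7.01, SE 0.52) and DSC3 (log2FC 4.54, SE 0.53) were among the squamous markers higher in HGA, and in the metastases 7 of 10 squamous markers were lower and 6 of 8 glandular markers higher than in HGA.

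The members also share positions. In the RefSeq gene table of the dog assembly UU_Cfam_GSD_1.0, 49 of the 50 symbols were found. Of these, 29 lie beside another member with no protein-coding gene between, and other kinds of genes were not considered. CCL4 and CCL3 are neighbors on chromosome 9, as are CCL1, CCL13, CCL8, CCL7 and CCL2 in that order, and CCL16 and CCL5. Of these, CCL2, CCL4 and CCL5 were called lower in HGA than in primary AGASAC, while CCL8 and CCL13 were called only in alternative fits. CCL21 and CCL19 are neighbors on chromosome 11, where only CCL21 was abundant in HGA, and CXCL10 and CXCL11 on chromosome 32, where CXCL11 had counts in 3 samples, at most 12 in primary AGASAC 7. CCL26 lies beside CCL24 on chromosome 6, with the difference between tumors seen in CCL26. Neighbors of this family can be close in sequence, which was not examined here. Reads that align to several places were split evenly by the authors, so the counts of neighboring genes may share reads, which was not tested.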

How the data were processed

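The whole counts were used as deposited. Per the authors, reads of a strand-specific 3′ library (QuantSeq) were trimmed with Cutadapt, aligned with STAR to CanFam3.1 with RefSeq genes, and turned into a count per gene by 2 rounds of featureCounts. The later round took the unassigned reads against an annotation extended by 2 kb at the 3′ end, and reads aligned to several places were kept and split evenly. The 25 columns of scaled counts were not used. Reads were not aligned again here, and library depth was 1562347 to 6389555 counts.

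Comparisons used edgeR 4.0.16 in R 4.3.3: a filter by group (filterByExpr, minimum count 10 and total 15), TMM, and a quasi-likelihood F test, with Benjamini-Yekutieli adjustment over all genes tested in that comparison. Genes with an adjusted p within 0.05 and a log2FC of at least 1 in size are called. The standard error is the size of the log2FC divided by the square root of F. Printed CPM were scaled over all 25 samples, and 1 was added before logarithms. DESeq2 1.42.0 (Wald test, no shrinkage) was the other tool, and tables were made with Python 3.11.15, pandas 2.3.3 and numpy 2.4.6. Alternatives were RLE or library size scaling, other filters, Benjamini-Hochberg adjustment, all 25 samples in a single fit, other sets of AGASAC samples, batch, RNA quality (DV200) and dog terms, fits within a batch or naming format, and leaving out each sample.

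A count of 3 was taken as the floor for a count of 0, which covers counting error only, as the reads carry no molecular identifiers. For duplicates, no pair of libraries in a group was closer than 1.5 in chi-square per degree of freedom, and the lowest were 12.2 in HGA, 24.7 in primary AGASAC and 32.6 in the metastases. For the pairing of dogs, primary and metastasis of the same dog correlated at 0.428 to 0.730 and other pairs at −0.351 to 0.0906.

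Genes named in the report are all members by the rule on symbols, and from the lists those called or defining a cell type. A member that was analyzed is not reported here by name. The lists were chosen with earlier results of these data known. Positions came from matching symbols in the RefSeq gene table of UU_Cfam_GSD_1.0, where 49 of 50 were found and CXCR4 was not. The scripts were tested on simulated data, which are not quoted.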

Additional observations from a re-analysis of the deposited data

Results flagged for a closer look

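Within HGA and within the metastases, a sample was marked when its level of a member, as log2(CPM + 1), lay far from all others of its group. Of 77 groups of values tested, 12 were marked. Chance flags about 1 in 20 groups of continuous values. That rate need not hold where all other samples are at 0 (CCRL2, CCL7 and CCR4 below), as the gap is then the whole range. The cause was not tested for any of them.

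HGA 10 had CXCL14 at 20.2 CPM, with the next lowest adenoma at 187 CPM, and CCL28 at 84.3 CPM (196 counts), with the next highest at 1.45 CPM. HGA 8 had CCR1 at 18.9 CPM (next 7.23), CXCL13 at 6.98 CPM (next 1.29), CXCR5 at 3.29 CPM (next 0.860) and CCL22 at 3.29 CPM (next 0.181). HGA 5 had CCL26 at 3.78 CPM (next 1.14). HGA 2 had CCRL2 at 2.71 CPM, while the other adenomas were at 0. HGA 9 had CCL27 at 0 CPM, with the next lowest at 2.46 CPM.

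Metastasis 1 had CCL21 at 0.649 CPM, from 2 counts, with the next lowest at 4.18 CPM. Metastasis 2 had CCL7 at 3.98 CPM and CCR4 at 1.59 CPM, while the other metastases were at 0 for both.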

How the results depend on the processing

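Between HGA and primary AGASAC, 7 of 16 members tested were called, beside 3032 of all 12070 genes tested. With at least 10 counts in every sample 2 of 4 tested were called, beside 1452 of 7410, and by DESeq2 11 of 50, beside 4349 of 24332. With Benjamini-Hochberg adjustment 11 of 16 were called, beside 3725 of 12070. With all 15 AGASAC samples in place of the primaries it was 11 of 20, beside 3496 of 12764. Within extraction batches 5, 6 and 8 it was 0, 0 and 0, with 262, 637 and 338 genes called over the whole table. Within naming format A it was 2 of 19, beside 2157 of 13433. With a block on sample numbers, which join different dogs, it was 4 of 15, beside 2543 of 11877. Leaving out primary AGASAC 6, 7 and 9, a set chosen after seeing the data, gave 4 of 15, beside 2963 of 12311. RLE factors gave 7, library size 8 and DV200 as a term 8 of 16, beside 3008, 3209 and 3040 of 12070. No filter gave 8 of 50, beside 3951 of 24332, and a single fit of all 25 samples 9 of 28, beside 3888 of 14752. Batch as a term gave 5 of 16, beside 3003 of 12070. Without HGA 8 and 10 there were 7 of 18, beside 3392 of 12670. Without primary AGASAC 2, 4 and 5 there were 5 of 15, beside 2763 of 12134, and both sets were chosen after seeing the data. Leaving out single samples gave 5 to 7, beside 2828 to 3373 of all genes. Between metastases and HGA, 5 of 21 were called, beside 2124 of 13195. With at least 10 counts in every sample it was 2 of 4, beside 1153 of 7657. Benjamini-Hochberg adjustment gave 9 of 21, beside 3536 of 13195. With the block on numbers it was 1 of 20, beside 662 of 12413, and by DESeq2 7 of 50, beside 3028 of 23466. When single samples were left out it was 1 (without metastasis 2) to 7 (without HGA 10), beside 1543 to 2588 of all genes. Between metastases and matched primaries, 0 were called in all alternatives. The log2FC of CCL23 against HGA was 0.23 and turned to −0.50 with the block and −0.54 without metastasis 2. It was 0.53 without metastasis 1 and 0.55 by library size. Against matched primaries CCL23 (−0.18) ran from −0.98 without metastasis 2 to 0.27 without primary AGASAC 2. There CXCL16 (−0.01) was 0.0014 by library size, 0.0608 in the fit of all 25 samples, 0.0578 against all 11 primaries, 0.0651 with the dog as a block, −0.19 without primary AGASAC 2 and 0.31 without primary AGASAC 1. Over the whole table DESeq2 called 5 genes and the dog block 1.

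The calls within a batch rest on 2 or 3 samples per group, and only 4 metastases were available. Tumor type, sex, age, breed and the naming format of the sequencing files differ between the groups together. The naming format was read from file names and is unknown for primary AGASAC 4. Sample numbers do not pair dogs between HGA and AGASAC, and numbered pairs correlated at −0.0554 to 0.0409 for primaries and −0.0369 to 0.004 for metastases. Bulk counts cannot separate cell number from RNA per cell. The cause of each change in calls was not tested.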

Other observations

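Some chemokine genes lie outside the rule on symbols. The gene CCL14, which the table lists under a locus number, was at 0 to 7.31 CPM in HGA (median 3.81), 0 to 9.37 CPM in primary AGASAC (median 2.92) and 0.643 to 5.43 CPM in the metastases (median 0.722). CCR2, the receptor for CCL2, is also listed under a locus number and was at 0 to 2.28 CPM in HGA (median 0.701), 0 to 4.59 CPM in primary AGASAC (median 0.654) and 0.643 to 5.57 CPM in the metastases (median 2.09). PPBP had counts in 3 of 10 HGA, up to 3.82 CPM, and was at most 0.904 CPM in primary AGASAC and 0.265 CPM in the metastases. Of 66 symbols searched, 16 were not analysed here under that symbol.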
